A study of Mus musculus with 24 samples.

Results

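Histone acetyltransferases and BET readers were examined as 9 named genes among the 53801 genes of the count table. The members were chosen by name: the acetyltransferase genes Ep300, Crebbp, Kat2a, Kat2b, Kat5, Kat6a and Kat7, and the BET reader genes Brd2 and Brd3. All 9 were in the table, and all 9 passed the filter on low counts that left 12963 genes to be tested. The choice rule uses their names and no threshold on a measured value.

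Histone acetyltransferases transfer the acetyl group of acetyl-CoA to lysines of histone tails, a mark found at active promoters and enhancers, and histone deacetylases such as HDAC3 remove it. BET proteins bind acetylated lysines through paired bromodomains and help to recruit the elongation factor P-TEFb and the transcription machinery. In blood progenitors p300, CBP and MOZ (the product of Kat6a) serve as coactivators of myeloid transcription factors, and each of these 3 genes is a partner in gene fusions of acute myeloid leukaemia.

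The study asked how an HDAC3 inhibitor changes transcription in cells that carry ERG, an ETS-family transcription factor. RNA was sequenced from ER-Hoxb8 cells, C57BL/6 mouse myeloid progenitors that a fusion of the oestrogen receptor and Hoxb8 holds in an immature state while beta-estradiol is present. The lines carried an empty lentiviral vector (BB), human ERG (WT-ERG) or the point mutant P199L-ERG, in a vector in which the PGK promoter drives the HA-tagged ERG and a minimal CMV promoter drives GFP. Each line was washed free of beta-estradiol and then given 5 µM BRD3308, an HDAC3 inhibitor, or the solvent DMSO for 36 h. This made 6 groups of 4 libraries, 24 in all. Every group, the BB controls included, therefore carried the Hoxb8 fusion and had lost its inducer. The lines were stable GFP-sorted populations, and the submitters describe 4 independent experiments per group. A separate transduction for each replicate is not stated, so the spread between libraries need not hold the spread between transductions. The dose and time are those of the deposited design, and other passages of the study give a different dose and time for its RNA sequencing.

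Libraries held 12510036 to 16280939 counts, and the members were covered by 397 counts (Crebbp) to 8538 counts (Brd2) in a library. The label was checked against 9 granulocyte-monocyte progenitor markers, whose summed level was 25560 to 29620 CPM (counts scaled to a common library size) in the DMSO libraries and 22740 to 27770 CPM with BRD3308. Markers of more mature cells moved with the drug. The 8 neutrophil markers summed to 1763 to 3111 CPM in DMSO and 4385 to 6434 CPM with BRD3308. The 8 monocyte and macrophage markers summed to 445.7 to 857.6 CPM and 1398 to 2010 CPM. The lines also differed within DMSO. Monocyte and macrophage markers there summed to 817 to 857.6 CPM in BB, 445.7 to 473.3 in WT-ERG and 475.2 to 556.7 in P199L-ERG. Progenitor markers summed to 25560 to 26260, 26490 to 27770 and 27810 to 29620 CPM in the same order. The neutrophil sums of the lines overlapped in DMSO. The 6 mast cell and basophil markers were lower with BRD3308 (289.1 to 356.2 CPM against 376.3 to 560.2 CPM, with Fcer1a at 0 in every library). B lymphocyte markers summed to 21.78 to 30.62 CPM in DMSO and 36.47 to 50.48 CPM with BRD3308, T lymphocyte markers to 3.002 to 5.873 CPM over all groups, and erythroid markers to at most 2.476 CPM, with the haemoglobin genes of the list at 0 in every library. All these values are sums, in which abundant genes weigh most, and the direction of single markers was not examined. Ly86 of the monocyte list was at 0 in WT-ERG with BRD3308. The part of these shifts, between treatments and between lines, in the results on the members was not tested. In bulk RNA, a change in how many cells of a type there are cannot be told apart from a change of RNA per cell.

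Divided by exon length, the members covered a wide range of levels. Brd2 was the most abundant, at a median of 64.45 CPM per kilobase (kb) over the 24 libraries, at percentile 94.4 of the genes tested. Kat7, which encodes the catalytic subunit of the HBO1 complex, followed at 33.38 CPM per kb, and Kat2a, which encodes GCN5 of the SAGA and ATAC complexes, at 27.05 CPM per kb. Lower levels per kb were found for Brd3 (17.9), Kat5, the catalytic subunit of NuA4/TIP60 (13.77), Ep300 (13.06), Kat6a (10.71) and Kat2b, which encodes PCAF (9.805), all in CPM per kb. Crebbp, which encodes CBP, was the least abundant member at 2.37 CPM per kb (percentile 31.7). The ranges over the 24 libraries were separate only for Brd2, for Crebbp and for the step from Kat2a down to Brd3. The ranges of all other neighbours in this order overlapped. Within each single library, Brd3 still lay above Kat5 and Ep300 above Kat6a. The lengths are those of the union of all annotated exons, so an unused exon lowers a level per kb.

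**Figure D1:**
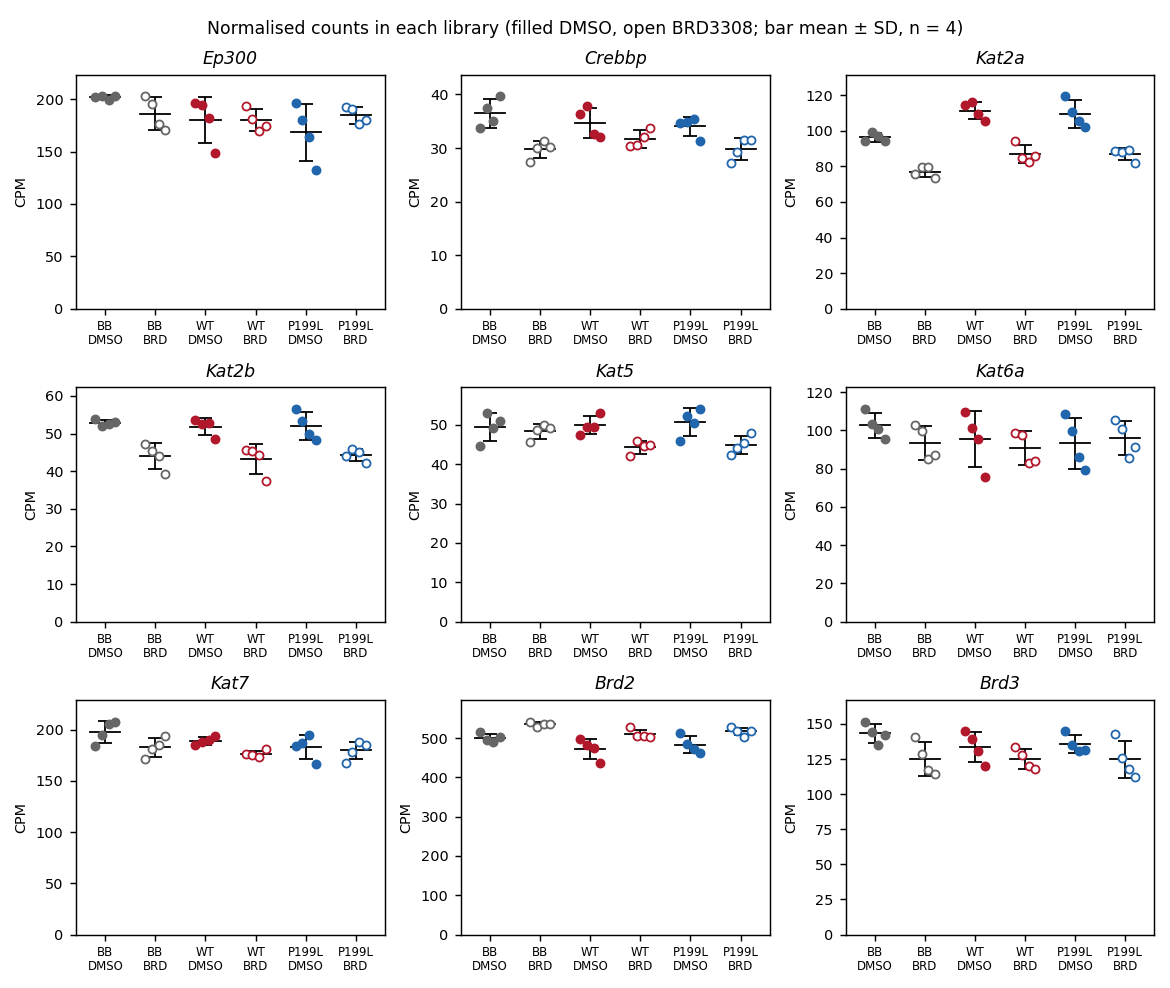
Normalised counts (CPM, linear axis from 0) of the 9 members in each of the 24 libraries, by construct and treatment; filled points are DMSO, open points BRD3308, and bars the mean ± SD of 4 libraries. The open points of Kat2a and Kat2b lie under the filled points of the same construct, and Ep300 has its lowest points, 148.6 and 132.6 CPM, in replicate 4 of the WT-ERG and P199L-ERG DMSO groups.

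Over the 6 groups, mean levels of the members moved little. The range of the group means was 0.53 on the log2 CPM scale for Kat2a, 0.29 for Kat2b, 0.29 for Crebbp and 0.28 for Ep300, and it lay between 0.17 and 0.20 for the other 5, against a median of 0.38 over all genes tested. No member differed by 1 or more on the log2 scale in any comparison.

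BRD3308 lowered Kat2a and Kat2b, the paralogous acetyltransferases of SAGA, in all 3 lines. The drug gave lower levels of 5 members and a higher level of 1 in BB, of 3 and 1 in WT-ERG, and of 4 and 1 in P199L-ERG, by edgeR's quasi-likelihood test at an adjusted p under 0.05 over all genes. The background was high. In BB, 22% of all genes tested were lower and 24% higher. In WT-ERG these shares were 23.2% and 24.7%, and in P199L-ERG 24.1% and 24.4%. The median change of the members was -0.14 in BB, -0.10 in WT-ERG and -0.12 in P199L-ERG on the log2 scale, beside a median over all genes of 0.01, 0.00 and -0.01. The lowest mean level of a member was 5.03 log2 CPM (Crebbp). Among genes of at least 4 log2 CPM, those under 4 kb of exon had medians of -0.05, -0.09 and -0.12. Those with 10 kb or more had medians of -0.05, -0.01 and 0.04.

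Kat2a lies on chromosome 11 (100704746 to 100712465, minus strand, GRCm38) and encodes GCN5, which acetylates histone H3. Its normalised counts in BB were 94.12, 99.53, 96.97 and 94.46 CPM with DMSO and 75.59, 79.55, 79.58 and 73.62 CPM with BRD3308. In WT-ERG they were 114.2, 116.2, 109.5 and 105.2 CPM with DMSO and 94.18, 84.56, 82.46 and 86.01 CPM with the drug. P199L-ERG cells gave 119.6, 110.6, 105.4 and 102.0 CPM with DMSO and 88.6, 88.06, 89.32 and 81.91 CPM with the drug. In each line every treated library lay below every DMSO library. The log2 fold change was -0.32 ± 0.05 (SE, n = 4 against 4) in BB, -0.36 ± 0.05 in WT-ERG and -0.33 ± 0.05 in P199L-ERG, with adjusted p of 5.7e-06, 7.26e-07 and 2.58e-06. The levels with drug were thus 0.800, 0.779 and 0.795 of those with DMSO.

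Kat2b (chromosome 17, 53566861 to 53672720, plus strand) encodes PCAF, which takes the place of GCN5 in some SAGA complexes. It read 53.85, 51.99, 52.5 and 52.98 CPM in BB with DMSO and 47.16, 45.5, 43.96 and 39.23 CPM with BRD3308. WT-ERG gave 53.61, 52.48, 52.82 and 48.58 CPM against 45.67, 45.49, 44.27 and 37.38 CPM. In P199L-ERG the values were 56.62, 53.27, 49.97 and 48.28 CPM with DMSO and 44.07, 45.87, 45.08 and 42.2 CPM with the drug. Again no treated library of a line reached its DMSO libraries. The log2 fold change of Kat2b was -0.26 ± 0.06 in BB (adjusted p = 0.000813), -0.26 ± 0.06 in WT-ERG (0.000774) and -0.23 ± 0.06 in P199L-ERG (0.00224). Both falls, of Kat2a and of Kat2b, passed the threshold in every line under all 9 alternative settings and without any single library.

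The CBP and p300 paralogs, broad coactivators that acetylate lysine 27 of histone H3 among other sites, did not share one pattern. Crebbp (chromosome 16, 4081328 to 4213997, minus strand) read 33.68, 37.39, 35.05 and 39.74 CPM in BB with DMSO and 27.48, 29.94, 31.35 and 30.2 CPM with BRD3308, 2 sets that did not overlap. The WT-ERG libraries gave 36.35, 37.86, 32.54 and 32.14 CPM against 30.29, 30.63, 32.05 and 33.79 CPM, and these overlapped. In P199L-ERG, 34.62, 34.89, 35.36 and 31.38 CPM with DMSO stood beside 27.24, 29.21, 31.43 and 31.47 CPM with the drug, which overlapped only through the DMSO library of replicate 4. Crebbp fell in BB by 0.29 on the log2 scale (SE 0.07, adjusted p = 0.00056) and in P199L-ERG by 0.19 (SE 0.07, adjusted p = 0.0166). In WT-ERG the change was -0.14 ± 0.07 (adjusted p = 0.0873). Leaving out WT-ERG DMSO replicate 4 gave -0.17 there (adjusted p = 0.0435) and leaving out WT-ERG BRD3308 replicate 4 gave -0.18 (0.047), whereas without P199L-ERG BRD3308 replicate 1 the P199L-ERG value was -0.15 (0.0807).

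Ep300 (chromosome 15, 81585351 to 81652077, plus strand) did not pass the test with BRD3308 in any line. It read 201.9, 203.1, 199.2 and 203.0 CPM in BB with DMSO and 202.7, 195.6, 176.0 and 170.6 CPM with the drug, 196.3, 194.2, 182.2 and 148.6 CPM against 193.8, 181.0, 169.7 and 174.4 CPM in WT-ERG, and 196.1, 180.3, 164.0 and 132.6 CPM against 192.1, 190.6, 175.8 and 179.9 CPM in P199L-ERG. The BB libraries with DMSO lay close together. Those of WT-ERG and P199L-ERG with DMSO spread most (SD 22.03 and 27.11 CPM). Treated and DMSO libraries overlapped in every line. The log2 fold change was -0.12 ± 0.08 in BB, -0.01 ± 0.08 in WT-ERG and 0.13 ± 0.08 in P199L-ERG, with 95% intervals of -0.29 to 0.06, -0.18 to 0.16 and -0.04 to 0.30. With the replicate number as a block, Ep300 was higher with the drug in P199L-ERG (0.14, adjusted p = 0.0304), as it was without the filter on low counts (0.15, 0.0101). In a fit of the BB groups alone it was lower with the drug (-0.11, adjusted p = 0.0455).

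The MYST-family acetyltransferases Kat5, Kat6a and Kat7 changed by at most 0.17 on the log2 scale. Kat5 (chromosome 19, 5603014 to 5610237, minus strand) acetylates histone H4 and H2A variants and acts in the response to DNA breaks. It read 47.44, 49.57, 49.59 and 53.03 CPM in WT-ERG with DMSO and 42.05, 45.86, 44.53 and 44.95 CPM with BRD3308, without overlap. In P199L-ERG the values were 46.01, 52.27, 50.39 and 54.13 CPM against 42.37, 44.03, 45.41 and 47.94 CPM, which overlapped through 1 library on each side. BB gave 44.7, 53.0, 49.26 and 51.09 CPM against 45.7, 48.66, 49.9 and 49.34 CPM, fully mixed. Kat5 fell by 0.17 in WT-ERG (SE 0.06, adjusted p = 0.0146) and by 0.17 in P199L-ERG (SE 0.06, adjusted p = 0.0118) on the log2 scale, and changed by -0.03 ± 0.06 in BB (adjusted p = 0.656). Without WT-ERG DMSO replicate 4 the WT-ERG value was -0.14 (adjusted p = 0.0532). Of the exon bases of Kat5, 12.1% are shared with Rnaseh2c on the other strand, which was itself lower with the drug (log2 change -0.26 in BB, -0.19 in WT-ERG and -0.30 in P199L-ERG), and the strand setting of the counts is not given in the sources used here. The part of Rnaseh2c reads in the Kat5 counts was not tested.

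Kat7 (chromosome 11, 95274259 to 95310246, minus strand), which acetylates histone H3 at lysine 14 in the HBO1 complex, read 184.2, 194.7, 205.3 and 208.0 CPM in BB with DMSO and 171.2, 181.6, 184.8 and 194.3 CPM with the drug. The 2 sets overlapped, and the fall of 0.11 (SE 0.05, adjusted p = 0.0441) lost its call without any 1 of BB DMSO replicates 2, 3 and 4, BB BRD3308 replicates 1, 2 and 3 or WT-ERG BRD3308 replicate 2 (-0.09 to -0.13, adjusted p 0.0505 to 0.151) and when no filter on low counts was applied (adjusted p = 0.0534). In WT-ERG the Kat7 change was -0.10 ± 0.05 (adjusted p = 0.0726) and in P199L-ERG -0.03 ± 0.05 (0.676). Kat6a (chromosome 8, 22859535 to 22943259, plus strand), the MOZ acetyltransferase of the blood stem cell programme, ranged from 75.45 to 111.3 CPM over all libraries, with changes of -0.14 ± 0.10 in BB, -0.07 ± 0.10 in WT-ERG and 0.04 ± 0.10 in P199L-ERG. None of the 3 passed the test. With the replicate number as a block, Kat6a was lower in BB (-0.14, adjusted p = 0.0168).

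Of the BET readers, Brd2 rose in all 3 lines and Brd3 fell in BB. Brd2 (chromosome 17, 34112023 to 34122634, minus strand) read 514.4, 495.1, 489.9 and 501.9 CPM in BB with DMSO and 541.9, 528.5, 536.5 and 536.5 CPM with BRD3308. In WT-ERG the libraries gave 497.8, 482.6, 474.7 and 437.7 CPM against 526.8, 505.8, 505.4 and 503.1 CPM, and in P199L-ERG 511.7, 485.9, 471.4 and 462.8 CPM against 527.1, 518.4, 503.4 and 518.5 CPM. Treated and DMSO libraries were separate in BB and WT-ERG, and P199L-ERG DMSO replicate 1 reached into the treated range. The rises were small: 0.10 ± 0.04 in BB (adjusted p = 0.0255), 0.11 ± 0.04 in WT-ERG (0.014) and 0.10 ± 0.04 in P199L-ERG (0.0259) on the log2 scale, or 1.07 to 1.08 times the DMSO level.

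These calls on Brd2 rested on single libraries. Of 24 fits that each left out 1 library, 12 kept the call in BB, 22 in WT-ERG and 19 in P199L-ERG. In BB it was lost without DMSO replicates 2 and 3, without each of the 4 BRD3308 libraries, and without WT-ERG BRD3308 replicates 3 and 4 or any P199L-ERG BRD3308 library (0.09 to 0.10, adjusted p 0.0512 to 0.0902). In WT-ERG it was lost without DMSO replicate 4 (0.07, adjusted p = 0.086) and BRD3308 replicate 1 (0.09, 0.0945), and in P199L-ERG without DMSO replicates 3 and 4 and BRD3308 replicates 1, 2 and 4 (0.07 to 0.09, adjusted p 0.0697 to 0.117). Brd2 shares 9.78% of its exon bases with other genes, among them H2-DMa, an MHC class II chaperone gene on the opposite strand. H2-DMa rose with the drug by 1.17 in BB, 0.96 in WT-ERG and 0.96 in P199L-ERG on the log2 scale. Its mean went from 20.4 to 45.92 CPM in BB, 21.1 to 40.88 CPM in WT-ERG and 21.24 to 41.2 CPM in P199L-ERG, beside means of 500.4 and 535.8, 473.2 and 510.3, and 482.9 and 516.8 CPM for Brd2. The part of H2-DMa reads in the Brd2 counts was not tested.

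Brd3 (chromosome 2, 27445579 to 27507662, minus strand), a BET reader known for binding acetylated GATA1, was lower with the drug in BB. It read 151.7, 144.5, 135.1 and 142.0 CPM with DMSO and 140.8, 128.7, 117.1 and 114.0 CPM with BRD3308 there, and the 2 sets overlapped. The log2 fold change was -0.20 ± 0.07 in BB (adjusted p = 0.0214), -0.10 ± 0.07 in WT-ERG (0.254) and -0.12 ± 0.07 in P199L-ERG (0.157). The call in BB was lost without BB DMSO replicate 1 (-0.17, adjusted p = 0.0708), BB BRD3308 replicate 3 (-0.17, 0.0699) or BB BRD3308 replicate 4 (-0.16, 0.0833). With the replicate number as a block, P199L-ERG also passed (-0.12, adjusted p = 0.00509).

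**Figure D2:**
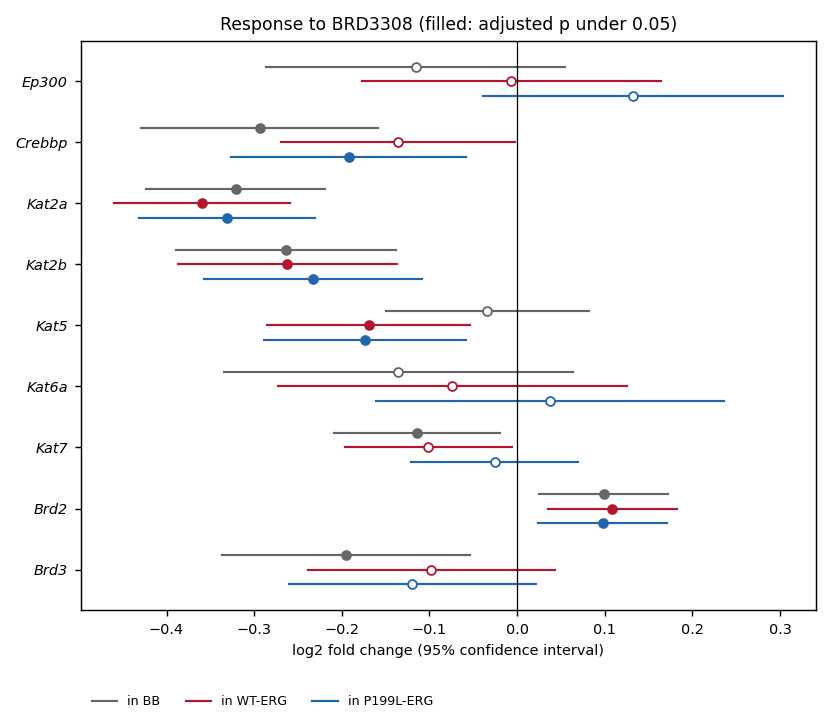
Log2 fold change of each member with BRD3308 against DMSO, with its 95% confidence interval, in BB, WT-ERG and P199L-ERG; filled points have an adjusted p under 0.05 (edgeR). Kat2a lies between -0.36 and -0.32 in the 3 lines, Kat2b between -0.26 and -0.23, and Brd2 alone is filled on the right of 0, at 0.10 to 0.11.

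Whether the response differed between lines was tested as an interaction. None of the 9 members passed by edgeR in WT-ERG minus BB (1.73% of all genes did), P199L-ERG minus BB (1.05%) or P199L-ERG minus WT-ERG (0.0463%), and none by DESeq2 or limma-voom. At an unadjusted p under 0.05 the counts were 0, 1 and 0, and the 1 was Ep300. Its response in P199L-ERG exceeded that in BB by 0.25 ± 0.12 on the log2 scale (95% interval 0.01 to 0.49, adjusted p = 0.38), and it passed without the filter on low counts (0.27, adjusted p = 0.0105). It passed in 0 of 24 fits that each left out 1 library, and without P199L-ERG DMSO replicate 4 it was 0.15 (adjusted p = 0.652). The 95% intervals for Kat2a reached from -0.18 to 0.11 for WT-ERG minus BB and from -0.15 to 0.13 for P199L-ERG minus BB. For Kat5, whose fall passed in both ERG lines and not in BB, the differences were -0.14 ± 0.08 (adjusted p = 0.611) and -0.14 ± 0.08 (0.471). The 3 interactions share libraries with one another.

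Between constructs, Kat2a was the one member higher with ERG. In DMSO, WT-ERG against BB gave 1 member higher and 0 lower (background 15.6% and 14.1% of all genes), and P199L-ERG against BB gave 1 higher and 1 lower (15.3% and 12.9%). The median change of the members was -0.07 and -0.08 on the log2 scale, beside 0.01 and 0.02 over all genes. With BRD3308, each ERG line had 1 member higher than BB and 0 lower (background 10.4% and 10.7% for WT-ERG, 8.12% and 8.81% for P199L-ERG). Where these counts of lower members were 0, 1 further member had an unadjusted p under 0.05 in WT-ERG against BB under each treatment and 0 in P199L-ERG against BB with BRD3308, and DESeq2 and limma-voom also called 0.

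Kat2a averaged 96.27 ± 2.52 CPM in BB, 111.3 ± 4.93 CPM in WT-ERG and 109.4 ± 7.69 CPM in P199L-ERG with DMSO (SD, n = 4 each). Every ERG library with DMSO, the lowest at 102.0 CPM, lay above every BB library, the highest at 99.53 CPM. The difference from BB was 0.21 ± 0.05 for WT-ERG (adjusted p = 0.00141) and 0.18 ± 0.05 for P199L-ERG (0.00519) on the log2 scale. When only the 2 groups compared were fitted, the P199L-ERG value was 0.17 with an adjusted p of 0.0553. With BRD3308 the means were 77.08 ± 2.98, 86.8 ± 5.13 and 86.97 ± 3.42 CPM in BB, WT-ERG and P199L-ERG, and again the lines did not overlap with BB. The difference was 0.17 ± 0.05 in both (adjusted p = 0.0134 and 0.0143).

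Single libraries moved the Kat2a calls with BRD3308. The WT-ERG difference there did not pass without BB BRD3308 replicate 1 (0.15, adjusted p = 0.0659), BB BRD3308 replicate 4 (0.14, 0.091) or WT-ERG BRD3308 replicate 1 (0.12, 0.135). The P199L-ERG difference did not pass without BB BRD3308 replicates 1 or 4 or P199L-ERG BRD3308 replicates 1, 2 or 3 (0.15 to 0.16, adjusted p 0.0587 to 0.0856). In DMSO the differences of both ERG lines passed without any single library. Kat2b, the paralog, differed from BB by -0.02 ± 0.06 in both ERG lines with DMSO (95% intervals -0.15 to 0.10 and -0.14 to 0.10).

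Ep300 was the one member lower than BB, in P199L-ERG with DMSO. The change was -0.26 ± 0.08 on the log2 scale (adjusted p = 0.0196), and all 4 P199L-ERG libraries lay below the lowest BB library at 199.2 CPM. Without P199L-ERG DMSO replicate 4, which read 132.6 CPM, the change was -0.17 (adjusted p = 0.094), and in a fit of the 2 groups alone it was -0.27 (0.0625). In WT-ERG with DMSO all 4 libraries also lay below BB, and the change was -0.16 ± 0.08 (adjusted p = 0.156). With the replicate number as a block, WT-ERG against BB in DMSO passed for Ep300 (-0.17, adjusted p = 0.0159), Brd2 (-0.08, 0.0289) and Brd3 (-0.10, 0.0297), which made 3 members lower in place of 0. In the same blocked fit Kat5 was lower in WT-ERG than in BB with BRD3308 (-0.13, adjusted p = 0.0196), 1 member lower in place of 0. Without the block these 4 had adjusted p of 0.156, 0.0962, 0.304 and 0.122. The share of all genes passing in the blocked fit was not counted, so these counts of members have no background beside them. Without WT-ERG DMSO replicate 4, and with no block, the WT-ERG differences with DMSO were -0.08 for Ep300, -0.04 for Brd2 and -0.05 for Brd3 (adjusted p = 0.507, 0.368 and 0.645).

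Between P199L-ERG and WT-ERG cells no member passed the test. With DMSO, 0 members passed in either direction by edgeR (background 2.23% higher and 2.45% lower), 0 had an unadjusted p under 0.05, and DESeq2 and limma-voom called 0. With BRD3308 the counts were the same (background 1.31% higher and 2.09% lower). The 95% interval of the Kat2a difference was -0.12 to 0.07 with DMSO and -0.10 to 0.10 with BRD3308, and that of Ep300 was -0.27 to 0.07 and -0.13 to 0.21. With the length slope of the libraries as a covariate Ep300 was lower in P199L-ERG than in WT-ERG with DMSO (-0.11, adjusted p = 0.0163). Without the covariate this difference was -0.10 (adjusted p = 0.607). Fits without it that each left out 1 library gave -0.18 to 0.002, and 0 of 24 passed. The slope is taken from deviations within groups, so the covariate does not take out a length difference between groups.

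**Figure D3:**
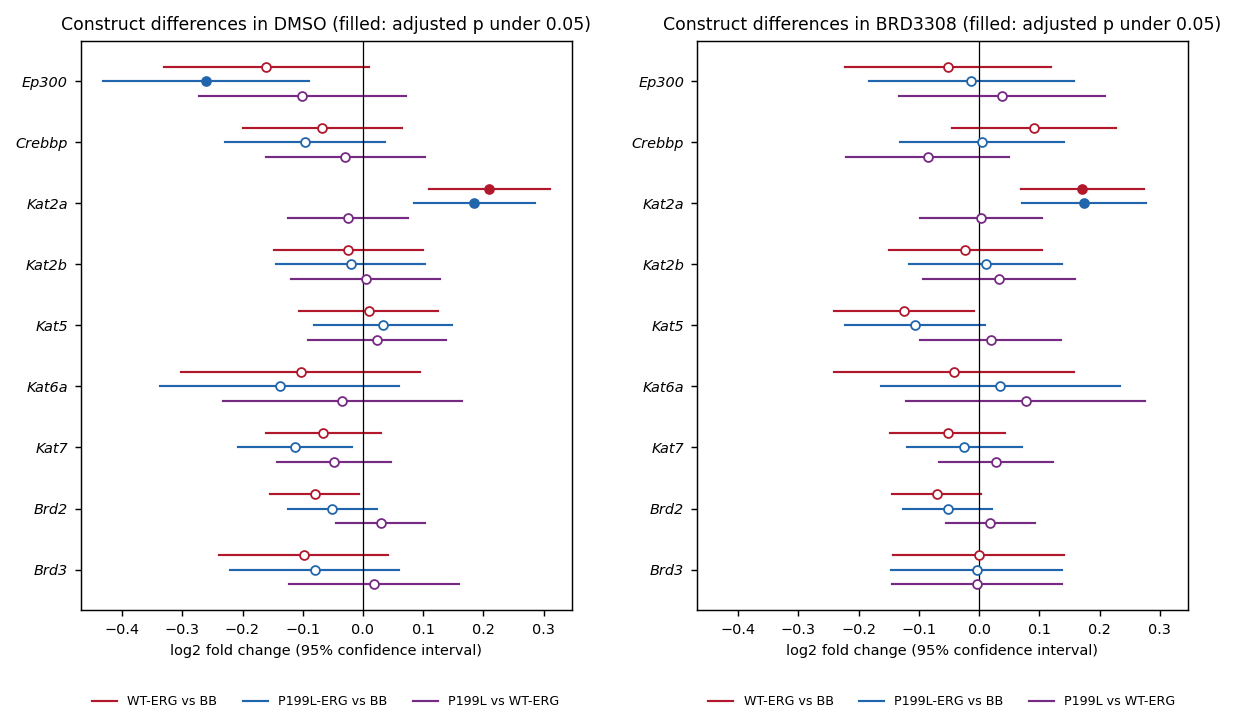
Log2 fold change of each member between constructs with DMSO (left) and BRD3308 (right), with its 95% confidence interval; filled points have an adjusted p under 0.05 (edgeR). Kat2a is filled for both ERG lines against BB, at 0.21 and 0.18 with DMSO and 0.17 in both with BRD3308, and Ep300 is filled at -0.26 for P199L-ERG against BB with DMSO.

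The longest transcripts varied with a property of the libraries. For each library, the deviation of log2 CPM from its group mean was regressed on the log2 of exon length over 8961 genes, and the slope was steepest in WT-ERG DMSO replicate 4 (-0.0639 per doubling of length) and P199L-ERG DMSO replicate 4 (-0.0851), where long genes read low. Ep300, with 14.3 kb of exon the longest member, read lowest in those 2 libraries, and Kat6a, with 9.18 kb, read 75.45 and 79.02 CPM there, the lowest of their groups. Crebbp, with 13.5 kb, spread less along the slope. Among genes of at least 4 log2 CPM, the 871 with 10 kb or more of exon had a median change of -0.08 for P199L-ERG against BB with DMSO, and the 3030 under 4 kb one of 0.08. For WT-ERG against BB with DMSO these medians were -0.04 and 0.04. For BRD3308 against DMSO they were -0.046 and -0.048 in BB, -0.007 and -0.089 in WT-ERG, and 0.036 and -0.123 in P199L-ERG. Kat5 (3.51 kb) and Kat2a (3.48 kb) are in the shorter class. In the 2 replicate 4 libraries Kat5 read highest of its groups (53.03 and 54.13 CPM) and Kat2a lowest (105.2 and 102.0 CPM).

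Using the slope as a covariate leaves the group means nearly as they were and takes up spread within groups. In that fit 14 calls newly passed, on Ep300, Kat6a, Kat7, Brd2, Brd3 and Kat5, and none on Crebbp. The share of all genes passing in that fit was not counted. In every group the slope was lower in replicate 4 than in replicate 1, so this covariate and the replicate block overlap. Ep300 was then lower in WT-ERG (-0.17, adjusted p = 1.94e-05) against BB with DMSO, lower with BRD3308 in BB (-0.12, 0.00115) and higher with it in P199L-ERG (0.15, 7.82e-05). Its response in P199L-ERG minus BB was 0.27 (7.27e-05) in that fit. Leaving out both replicate 4 libraries moved the Ep300 response in P199L-ERG to 0.03 (adjusted p = 0.646), from 0.13. The part of transcript length in the values of Ep300, Kat5 and Kat2a was not tested.

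**Figure D4:**
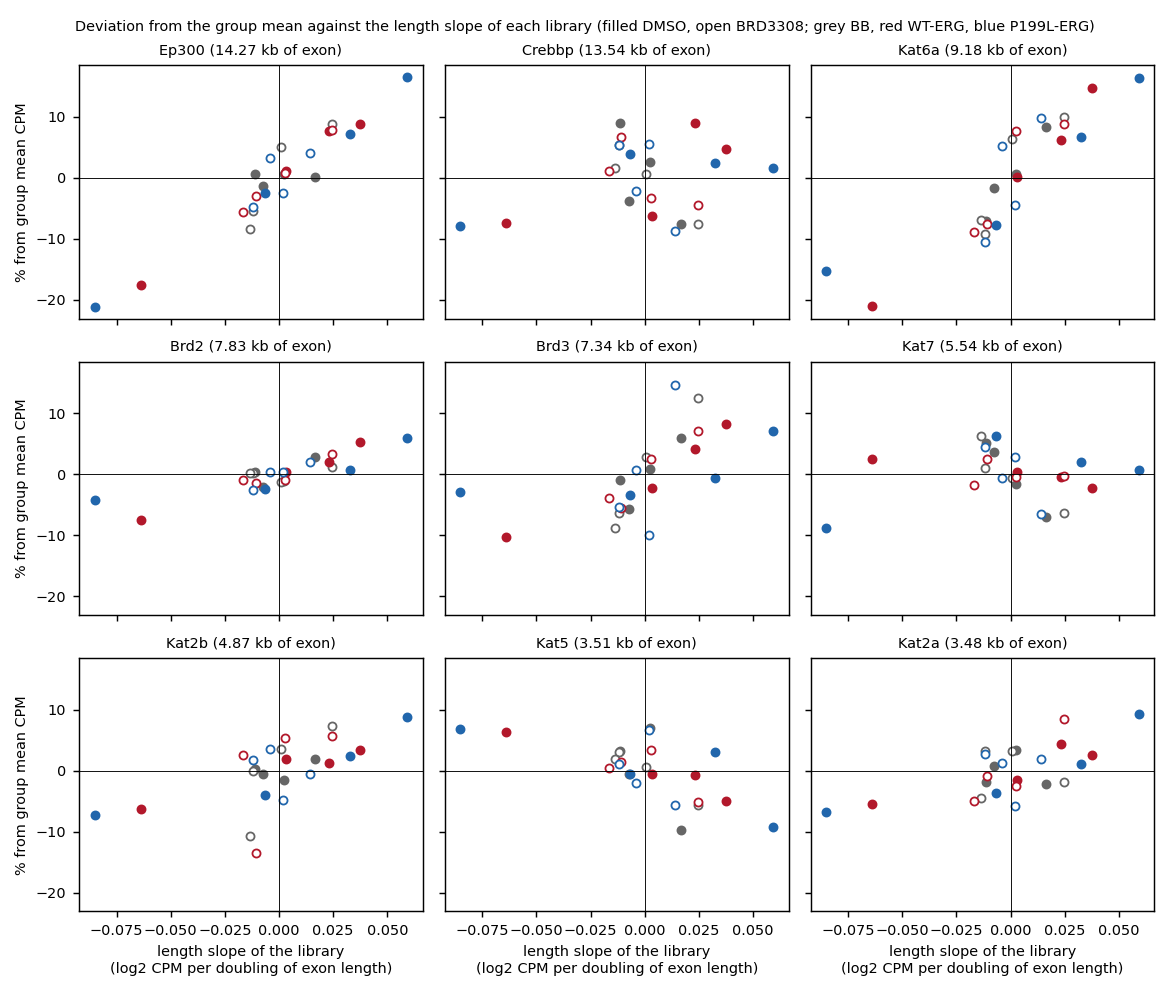
Deviation of each member from its group mean (percent of CPM) against the length slope of the library, which is the change of log2 CPM per doubling of exon length; panels run from the longest member to the shortest, filled points are DMSO and open points BRD3308. The 2 libraries at the far left are WT-ERG and P199L-ERG DMSO replicate 4 (slopes -0.0639 and -0.0851), where Ep300 and Kat6a lie farthest below 0.

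The balance within paralog pairs was read from ratios of levels per kb. The ratio of Brd2 to Brd3, both in CPM per kb, was 3.28 ± 0.10 in BB, 3.32 ± 0.10 in WT-ERG and 3.34 ± 0.04 in P199L-ERG with DMSO. With BRD3308 it was 4.04 ± 0.38, 3.83 ± 0.16 and 3.91 ± 0.36, and the lowest treated library of each line (3.61, 3.69 and 3.45) lay above its highest DMSO library (3.40, 3.42 and 3.38). Kat2a to Kat2b stood at 2.55 ± 0.10 in BB with DMSO and at 3.002 ± 0.08 and 2.94 ± 0.02 in WT-ERG and P199L-ERG, whose libraries all lay above those of BB. With the drug this ratio was 2.46 ± 0.16, 2.83 ± 0.29 and 2.75 ± 0.06. Ep300 to Crebbp went from 5.27 ± 0.36 to 5.97 ± 0.79 with the drug in BB, from 4.92 ± 0.40 to 5.399 ± 0.54 in WT-ERG and from 4.67 ± 0.59 to 5.90 ± 0.66 in P199L-ERG, with overlap between treated and DMSO libraries in all lines. These ratios are descriptions, without a test.

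The promoters of 4 members are shown because ERG is an ETS factor and the data bear on them: Kat2a is the member higher with ERG, Kat2b its paralog without that difference, Kat5 a member whose window holds CCGGAA, and Brd2 the member that rose with the drug. Each is 300 bases, from 250 before to 50 after a RefSeq start on GRCm38.p6, and capitals mark CCGGAA, a form of ETS site, on either strand. Other forms, which hold GGAA without CC before it, were not searched for and are not marked.
Kat2a, chr11:100712418-100712717, minus strand: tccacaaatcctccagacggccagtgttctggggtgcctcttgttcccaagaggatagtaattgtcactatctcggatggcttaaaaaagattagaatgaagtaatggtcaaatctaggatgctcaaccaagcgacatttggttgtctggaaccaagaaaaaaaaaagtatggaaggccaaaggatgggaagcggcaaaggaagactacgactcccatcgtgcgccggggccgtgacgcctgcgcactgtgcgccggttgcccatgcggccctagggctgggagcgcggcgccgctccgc
Kat2b, chr17:53566721-53567020, plus strand: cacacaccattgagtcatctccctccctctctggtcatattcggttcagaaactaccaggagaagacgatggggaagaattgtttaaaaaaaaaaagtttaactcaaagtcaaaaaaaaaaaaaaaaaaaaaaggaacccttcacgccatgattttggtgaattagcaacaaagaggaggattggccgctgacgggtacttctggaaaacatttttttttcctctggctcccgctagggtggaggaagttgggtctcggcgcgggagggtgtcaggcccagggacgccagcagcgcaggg
Kat5, chr19:5610045-5610344, minus strand: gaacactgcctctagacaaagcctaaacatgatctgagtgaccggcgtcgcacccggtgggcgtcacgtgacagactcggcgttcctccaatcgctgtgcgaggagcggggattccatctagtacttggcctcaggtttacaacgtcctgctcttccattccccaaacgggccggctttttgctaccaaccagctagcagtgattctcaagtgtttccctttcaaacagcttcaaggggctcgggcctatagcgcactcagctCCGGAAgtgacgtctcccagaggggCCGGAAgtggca
Brd2, chr17:34122558-34122857, minus strand: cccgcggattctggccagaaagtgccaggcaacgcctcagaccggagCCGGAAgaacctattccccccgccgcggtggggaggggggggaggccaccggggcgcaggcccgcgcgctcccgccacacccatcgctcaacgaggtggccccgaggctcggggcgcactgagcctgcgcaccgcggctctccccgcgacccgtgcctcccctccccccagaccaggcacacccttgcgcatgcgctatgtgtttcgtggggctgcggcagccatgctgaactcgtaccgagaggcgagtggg

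RefSeq gave 12 promoter windows for 8 of the members, among 32851 in all. CCGGAA was in 4 of the 12, 1 each for Kat5, Kat7, Brd2 and Brd3, and in 14.9% of all promoters. The longer site CCGGAAGT, which contains CCGGAA, was in the windows of Kat5 and Kat7 and in 3.89% of all. The Kat2a window, shown above, held none of the 7 motifs searched on both strands. The Kat5 window shown held the ETS core at 14 and 39 bases after the start, and the Brd2 window shown held 1 at 203 bases before it. These genes have other RefSeq windows, 1 more for Kat5 and 2 more for Brd2, without the core, and the windows shown were picked because they hold it. Kat2b also has 1 more window, and neither holds it. GGGCGG (the GC box) was found in 6 of the 12 and in 35.7% of all promoters, CCAAT in 3 and 37.4%, CACGTG (the E-box) in 1 and 7.15%, and TATAAA in 0 and 13.6%. TGACGTCA, the cAMP response element, was in 0 of the 12 and 1.79% of all. The ratio of observed to expected CpG was 0.357 to 1.097 in the 12 windows, beside a median of 0.384 over all promoters; the second Kat2b window, at 0.357, lay under that median and the other 11 above it. These matches are descriptions of the letters and show no binding.

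Genes that work with the members were followed in 9 lists. Some genes stand in more than 1 list, among them Meaf6, Brd8, Kat14 and Ncoa3, so the counts of the lists are not independent. With BRD3308 in WT-ERG, the lists of the acetyltransferase complexes held mainly falls. Of 26 SAGA and ATAC subunits tested, 13 were lower and 1 higher (median -0.13 on the log2 scale), led by Zzz3 (-0.25), Kat14 (-0.28), Tada2b (-0.45) and Sgf29 (-0.33). The NuA4/TIP60 list, around Kat5, had 9 of 17 lower and 0 higher (median -0.17), with Actl6a at -0.41, Ruvbl2 at -0.41, Vps72 at -0.34 and Ruvbl1 at -0.49. Of the 9 MOZ and HBO1 subunits, the partners of Kat6a and Kat7, 6 were lower and 0 higher (median -0.21), with Jade3 at -0.64, Ing5 at -0.36, Meaf6 at -0.29 and Brpf3 at -0.33. In BB these 3 lists had 13, 8 and 7 lower and 1 higher each, and in P199L-ERG 11, 10 and 4 lower and 2, 0 and 1 higher. Over all genes, 22% to 24.1% were lower and 24% to 24.7% higher in the 3 lines.

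The background for the lists in WT-ERG was 23.2% of all genes lower and 24.7% higher. Of 30 other bromodomain and YEATS readers tested, 14 were lower and 2 higher in WT-ERG (median -0.14), among them Brd7 of the PBAF remodeller (-0.33), Brd8 of NuA4/TIP60 (-0.23), the corepressor Trim28 (-0.21) and Baz2b, which rose by 0.27. In BB the counts were 16 and 1, and in P199L-ERG 13 and 3. Among 9 other histone acetyltransferases, 3 were lower and 1 higher in WT-ERG (median -0.11): Kat14 (-0.28), Kat6b, the paralog of Kat6a (-0.28), Hat1 (-0.16) and the steroid receptor coactivator Ncoa3 (0.41). The counts in BB were 4 and 1 and in P199L-ERG 3 and 1.

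Partners of the coactivators and BET proteins are read against the same shares of 23.2% lower and 24.7% higher in WT-ERG. Of 13 P-TEFb and BET partners, 6 rose and 3 fell in WT-ERG (median 0.08), with Hexim2, an inhibitor of P-TEFb, at 0.87, the elongation factor Ell2 at 0.75, Larp7, which stabilises the 7SK RNA, at -0.50 and Jmjd6 at -0.46. In BB 3 rose and 5 fell, and in P199L-ERG 6 rose and 3 fell. Of 10 p300/CBP partners tested, 2 rose and 0 fell in WT-ERG (median -0.01), Ncoa3 and Creb1 (0.18), with 2 and 3 in BB and 2 and 0 in P199L-ERG. In the list of 6 genes of acetyl-CoA supply, 3 fell and 1 rose in each line (median -0.17 in WT-ERG). In WT-ERG these were the citrate carrier Slc25a1 (-0.52), ATP citrate lyase Acly (-0.46), carnitine acetyltransferase Crat (-0.33) and the mitochondrial acetyl-CoA synthetase Acss1 (0.38). The 4 class I histone deacetylases, which include the drug target Hdac3, gave Hdac2 lower (-0.20) and Hdac1 higher (0.15) in WT-ERG, 0 lower and 1 higher in BB, and 1 of each in P199L-ERG.

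For WT-ERG against BB with DMSO, where 15.6% of all genes were higher and 14.1% lower, the lists gave the following counts. NuA4/TIP60 subunits gave 5 higher and 0 lower, led by Ruvbl1 (0.43) and Ruvbl2 (0.32), ATPases shared with other complexes. SAGA and ATAC subunits gave 3 higher and 3 lower, with Usp22, the deubiquitinase of SAGA, at 0.27 and Atxn7l1 at -0.17. The readers gave 0 higher and 7 lower, with Baz2b at -0.27, Brpf1 at -0.25 and Trim24 at -0.27. MOZ and HBO1 subunits gave 1 higher, Jade2 at 0.64, and 3 lower. The p300/CBP partners gave 2 higher, Myb (0.24), a transcription factor that binds the KIX domain of p300 and CBP, and Carm1 (0.30), and 1 lower, Ncoa1 (-0.34). The other acetyltransferases gave 1 higher, Kat8 (0.17), and 1 lower, Ncoa1. P-TEFb and BET partners gave 2 higher and 4 lower, among them Aff1 (-0.23) and Ell2 (-0.41). Acetyl-CoA supply gave 0 higher and 2 lower, Crat (-0.27) and Acss2 (-0.36), and the class I deacetylases 0 in either direction by edgeR.

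**Figure D5:**
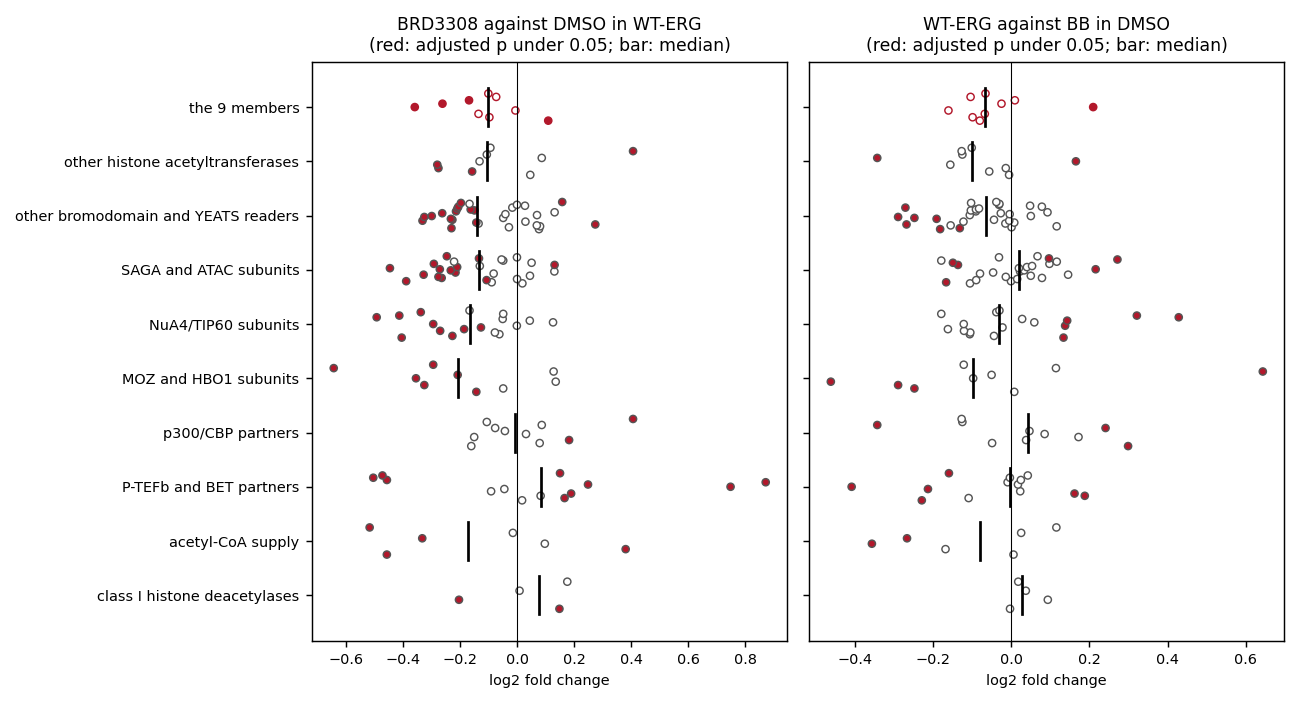
Log2 fold change of the 9 members and of every tested gene of the 9 lists, for BRD3308 against DMSO in WT-ERG (left) and WT-ERG against BB with DMSO (right); each point is a gene, red fill marks an adjusted p under 0.05 (edgeR), and the vertical bar is the median of the row. On the left the medians of the members (-0.10), the NuA4/TIP60 subunits (-0.17) and the MOZ and HBO1 subunits (-0.21) lie below 0, and the P-TEFb and BET partners reach from -0.50 to 0.87.

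The genes whose log2 CPM ran most like a member over the 24 libraries were sought among 7807 genes for the 3 members with the widest range of group means. For Kat2a these were Prepl (Pearson's r = 0.959), Eef2k (0.958) and Mogs (0.957). Kat2b ran most like Ints13 (0.949), Kif11 (0.938) and C2cd2 (0.928), and Crebbp most like Kif13a (0.896), Tcf25 (0.869) and Smg5 (0.852). The points are libraries that share treatment, construct and depth, so these values describe likeness over these groups and carry no p.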

How the data were processed

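RNA sequencing libraries of 6 groups, 4 replicates each, were used. The authors discarded reads shorter than 30 bp and aligned with STAR to GRCm38 and tested with DESeq2. Cutadapt and HTSeq are listed as further tools in the submitters' processing notes, with no version. The deposited values are raw counts of reads per gene. For annotation and strand, the setting is not given in the sources used here. Groups came from the labels. Symbols and exon lengths were taken from GENCODE M21 (53706 of 53801 genes matched).

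Genes were kept by filterByExpr and libraries scaled by TMM (factors 0.971 to 1.01). A single model of 6 group means took in all 24 libraries (edgeR 4.0.16, quasi-likelihood F test, two-sided, under R 4.3.3), and p-values were adjusted by Benjamini-Hochberg over the 12963 genes tested. CPM used TMM-scaled library sizes, and log2 CPM a prior count of 2. The members, lists and tests were chosen with earlier results of these data known. All 9 members are named; of each list up to 4 genes per comparison, those of smallest p for BRD3308 in WT-ERG or WT-ERG against BB with DMSO. Likeness partners were the 3 highest correlations among genes of at least 4 mean log2 CPM.

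Alternatives were DESeq2 1.42.0, limma-voom (limma 3.58.1), RLE scaling, library size alone, no filter, the replicate number as a block, the length slope as a covariate, fits of the compared groups alone, and leaving out libraries. Same-numbered libraries deviated together: over 60 pairs r was 0.072 to 0.632, with 55 over 0.1. Every pair was over 0.1 for the drug in BB and in P199L-ERG, WT-ERG against BB and P199L-ERG against WT-ERG in DMSO, and all constructs with BRD3308. The labels do not say what a number marks, so for these comparisons the pairing comes from the data. Replicate 1 had a positive length slope in every group (0.0141 to 0.0592). In replicate 4 the slope was negative except in P199L-ERG with BRD3308 (0.0019). The replicate block and the length slope covariate therefore overlap and are not independent settings. The part of the length slope in the r of same-numbered libraries was not tested. No libraries of a group were duplicates (chi-square per degree of freedom 1.52 or more). Tested on simulated data for the drug in BB, the fit found 26 of 50 genes changed 1.2-fold and 39 of 50 changed 1.5-fold, over 12341 genes. The genes changed were a far smaller share than the 22% lower and 24% higher called for the drug in BB. The recovery therefore need not hold for the real comparison. Counting error sets only part of the precision; p-values measure the spread between the libraries. A few genes of the lists are not reported here by name.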

Additional observations from a re-analysis of the deposited data

Results flagged for a closer look

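In 3 of the 54 sets of 4 libraries (9 members in 6 groups), 1 library stood apart from the other 3: its gap to the nearest library, as a share of the range of the set, exceeded Dixon's 95% critical value for 4 values. Chance alone gives this in about 1 in 20 sets. Kat2a in P199L-ERG with BRD3308 was lowest in replicate 4, at 81.91 CPM against 88.06 to 89.32 CPM (share 0.831). Kat2b in WT-ERG with BRD3308 was lowest in replicate 4, at 37.38 CPM against 44.27 to 45.67 CPM (share 0.831). Brd2 in WT-ERG with BRD3308 was highest in replicate 1, at 526.8 CPM against 503.1 to 505.8 CPM (share 0.886). Without these libraries the fall of Kat2a and that of Kat2b passed the test, and the rise of Brd2 in WT-ERG did not (0.09, adjusted p = 0.0945).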

How the results depend on the processing

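Over 9 alternative settings, 930 of 972 values of single members and comparisons kept their direction and side of the threshold, 36 newly passed, 6 no longer passed, and none that passed changed direction; 35 values that passed nowhere changed sign. Of 2592 values with 1 library left out, 2537 kept both, 15 newly passed and 40 no longer passed.

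Counts of members called that moved by over 1.5 times were as follows. With library size alone, 0 members were higher with the drug in BB and 2 lower in P199L-ERG than BB with DMSO. With no filter on low counts, 0 were higher with the drug in BB, 2 higher in P199L-ERG, 1 higher in the response of P199L-ERG minus BB, 1 lower in WT-ERG and 2 lower in P199L-ERG than BB with DMSO. With the replicate number as a block, 2 were higher with the drug in P199L-ERG and 5 lower in WT-ERG (Kat7 at -0.10 and Brd3 at -0.10 newly passed), 3 were lower in WT-ERG and 3 in P199L-ERG than BB with DMSO (Kat6a at -0.14 and Kat7 at -0.11 newly passed in the latter), and 1 lower in WT-ERG than BB with BRD3308. The block changed no call beyond these and those given in the report. For the drug in WT-ERG, same-numbered libraries had r of 0.073 to 0.574. For P199L-ERG against BB with DMSO r was 0.089 to 0.498, so not every pair was over 0.1 in either comparison. Libraries of different numbers had a median r of -0.103. Deviations from a group mean cancel within the group, so a positive r for same-numbered libraries makes the others negative on average. The negative median is therefore not separate evidence of a pairing. Of 24 libraries, 17 correlated best with their own number. The labels name no pairing beyond the number. With the length slope as a covariate, 2 were higher with the drug in P199L-ERG, 1 in the response of P199L-ERG minus BB, 3 lower in WT-ERG and 3 in P199L-ERG than BB with DMSO, 1 lower in P199L-ERG than WT-ERG with DMSO and 2 lower in WT-ERG than BB with BRD3308; members lower with the drug moved less, to 7 in BB, 4 in WT-ERG and 5 in P199L-ERG. In fits of the compared groups alone, 0 were higher with the drug in P199L-ERG, and 0 higher and 0 lower in P199L-ERG than BB with DMSO. DESeq2 gave 2 lower in P199L-ERG than BB with DMSO (Kat7 newly passed, -0.12, adjusted p = 0.047). Without both length-shifted DMSO libraries, 1 was lower in WT-ERG than BB with BRD3308, and Crebbp newly passed with the drug in WT-ERG (-0.17, adjusted p = 0.0274). RLE scaling and limma-voom changed no call on a member. The shares of all genes called under these settings, or with 1 library left out, were not counted. These counts of members therefore stand without a background. The causes were not tested.

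Leaving out 1 library in turn, members higher with the drug numbered 0 to 1 in BB, 0 to 1 in WT-ERG and 0 to 2 in P199L-ERG, and members lower 3 to 5, 3 to 4 and 4 to 4. Against BB with DMSO, WT-ERG had 1 to 1 higher and 0 to 1 lower and P199L-ERG 1 to 1 higher and 0 to 2 lower. Against BB with BRD3308, WT-ERG had 0 to 1 higher and 0 to 1 lower and P199L-ERG 0 to 1 higher. The other counts stayed at 0.

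Every member had at least 397 counts in each library. In the simulation 9 of 50 genes changed 1.2-fold were found for the response of WT-ERG minus BB, and 32 of 50 changed 1.5-fold.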
